A study of Rattus norvegicus with 4 samples.

Results

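Blood haemoglobin is built from alpha-globin and beta-globin chains, each holding a haem, and the genes of this group encode such chains, the enzyme that opens haem synthesis in red cell precursors, and the globins found in brain. The 9 symbols looked for were Hbb, Hba-a1, Hba-a2, Hba-a3, MGC72973, Alas1, Alas2, Ngb and Cygb. Matching them to the symbol column of the deposited normalized table gave 6 probes of the 22523 on the array. A further probe, which the table calls LOC287167, carries the gene number that RefSeq now names Hba-a3, so 7 genes of the 21397 measured were described, each read by 1 probe. Hba-a1 and Alas1 matched no probe symbol and were not analysed here. The members were chosen with their values in these samples known, so their differences are given as descriptions with no test.

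Hypothalamic RNA of male rats of the Wistar strain, 4 months of age, was read on Illumina bead arrays. FR30 rats had been undernourished before birth and control rats had not, and each kind was fed a high-fat (HF) or a standard diet. The samples are called FR30-HF, FR30-standard, control-HF and control-standard below. Each group was represented by 1 sample, so no difference had a replicate check, and the labels do not say whether a sample was 1 rat or a pool.

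Red blood cells carry haemoglobin in great amounts, and young red cells (reticulocytes) still hold globin mRNA, so RNA of any tissue that contains blood holds some of it. In bulk tissue, fewer or more cells of a type and less or more RNA per cell cannot be told apart. Neuroglobin, encoded by Ngb, is a haem protein of neurons that is known from the hypothalamus, and cytoglobin, encoded by Cygb, occurs in fibroblast-like cells and some neurons. Haem synthesis begins with an aminolevulinate synthase, whose red cell form is encoded by Alas2.

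Of 22523 probes on each array, 10712 were detected in FR30-HF, 10579 in FR30-standard, 11122 in control-HF and 10776 in control-standard, at a detection p under 0.01. All 10 of the hypothalamic neuropeptide genes looked at, Agrp, Pomc and Hcrt among them, were detected in all 4 samples. Signals below are the authors' normalized ones with the SD deposited beside them. What that SD was taken over is not stated, and at the median probe of each sample it was 3.20% to 3.41% of the signal. Differences are log2 differences of background-corrected, quantile-normalized values, and a gene with several probes stands under its brightest. Their medians over all genes lay between -0.002 and 0.019 in the 4 comparisons.

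The blood globin genes and the unnamed MGC72973 were higher on HF diet in both prenatal groups. For Hbb, MGC72973 and Hba-a2 the size was nearly the same in FR30 and control offspring, while Ngb and Cygb differed little. Of 6 probes detected in both samples, 3 were at least 1.5-fold higher on HF diet in FR30 offspring, where 0.197% of 10177 genes were. Of 5 detected in both, 2 were in control offspring, where 0.144% of 10398 genes were. Because the genes were picked on these very differences, nothing is read from those shares.

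Hbb, a beta-globin gene, had a normalized signal of 9337 ± 411 (deposited SD) in FR30-HF and 5340 ± 127 in FR30-standard. It was 8350 ± 85.5 in control-HF and 4559 ± 94.8 in control-standard. Both HF samples thus lay above both standard samples, with no overlap of the deposited SDs. The log2 difference between HF and standard diet was 0.86 in FR30 offspring and 0.89 in control offspring, or 1.81-fold and 1.85-fold, and the difference of these differences was -0.03. Between FR30 and control offspring Hbb differed by 0.17 on HF diet and by 0.20 on standard diet, under 1.5-fold in both.

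MGC72973 is an identifier to which neither the table nor RefSeq as used here attaches a gene name. Its signal was 3919 ± 140 (deposited SD) in FR30-HF and 2112 ± 25.2 in FR30-standard, and 3500 ± 190 in control-HF and 1980 ± 89.8 in control-standard. The diet differences were 0.85 in FR30 offspring and 0.81 in control offspring, nearly those of Hbb. The prenatal differences were 0.16 on HF diet and 0.12 on standard diet, where the signals were less than 2 deposited SDs apart on each side. Hbb and MGC72973 were the only 2 of 10100 genes detected in all samples (0.0198%) that were at least 1.5-fold higher on HF diet in both prenatal groups. Both were picked with these differences known, so nothing is read from that share. Whether the 2 probes see the same transcripts was not tested.

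Hba-a2, an alpha-globin gene, was among the brightest probes of the arrays, ranking between 24 and 77 of 22523. Its signal was 33181 ± 1060 (deposited SD) in FR30-HF and 21355 ± 90.5 in FR30-standard, and 32221 ± 1100 in control-HF and 19972 ± 662 in control-standard. Again both HF samples were above both standard samples, whereas FR30 and control offspring on the same diet were less than 2 deposited SDs apart when counted on each side. The diet differences were 0.51 in FR30 offspring and 0.55 in control offspring, smaller than those of Hbb and just under the 0.58 of a 1.5-fold difference. In the authors' normalized signals the same ratios were 1.55 and 1.61, past 1.5-fold, and in the non-normalized signals they were 1.51 and 1.30. The highest non-normalized signal of any probe was between 45661 and 50896 in the 4 samples. Whether signals this near the top of the range understate differences was not tested.

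**Figure D1:**
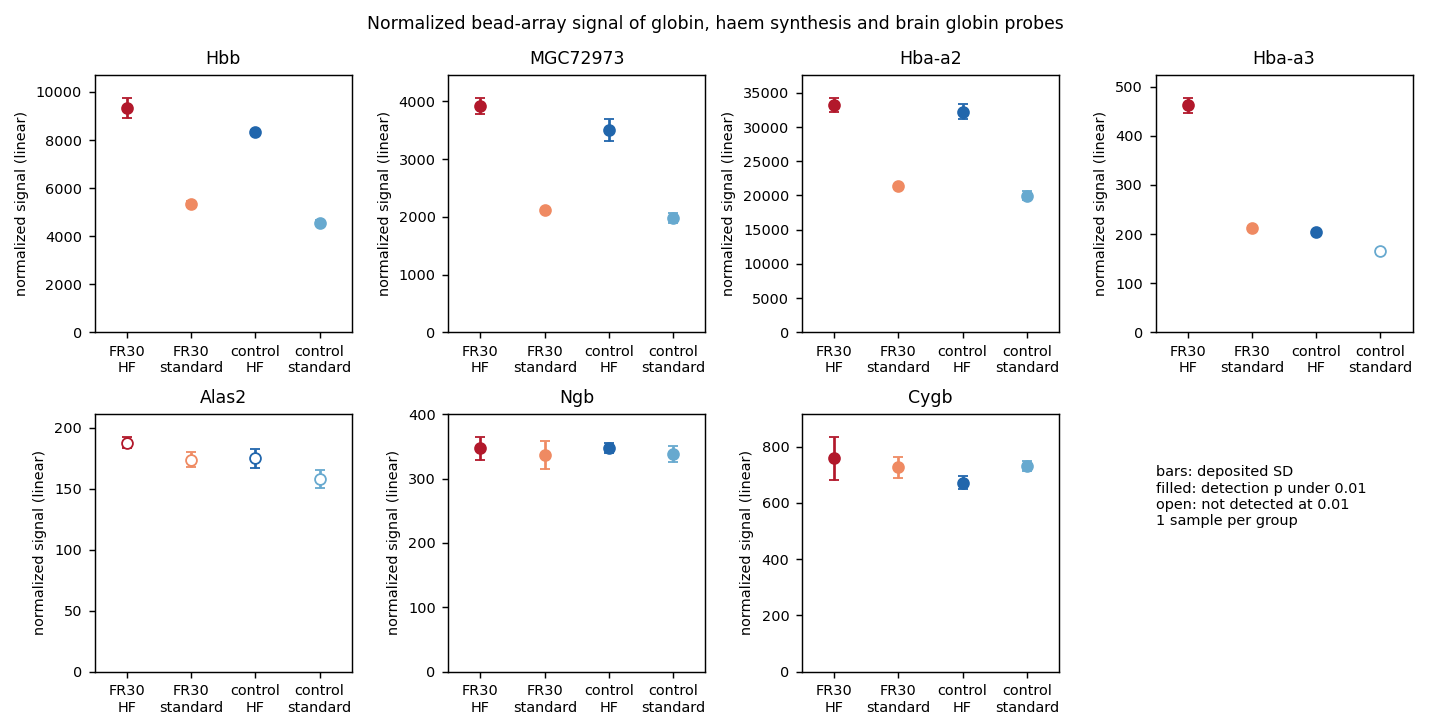
Normalized signal (vertical axis, linear, starting at 0) of each of the 7 probes in the 4 samples, with the deposited SD as bars. Filled points were detected at p under 0.01 and open points were not. Hbb, MGC72973 and Hba-a2 are higher in both HF samples than in both standard samples, Hba-a3 is highest in FR30-HF at 462, and Ngb lies between 337 and 348 throughout.

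Hba-a3, another alpha-globin gene, was far dimmer and did not share that pattern. Its signal was 462 ± 14.9 (deposited SD) in FR30-HF, 213 ± 3.10 in FR30-standard, 205 ± 1.78 in control-HF and 165 ± 4.68 in control-standard. FR30-HF stood apart from the other 3, and in control-standard the gene was not detected, with a detection p of 0.0945. The difference between HF and standard diet was 2.03 in FR30 offspring. Between FR30 and control offspring the difference was 2.19 on HF diet. Where control-standard enters, the value is a bound on the background-corrected scale, taken against the dimmest detected probe of that sample or the Hba-a3 value there, using the higher. On that scale Hba-a3 was at least 1.35-fold higher in control-HF and at least 1.51-fold higher in FR30-standard than in control-standard. The uncorrected signals gave smaller ratios, 1.24 and 1.29 in the authors' normalized values and 1.17 and 1.19 in the non-normalized ones, so neither bound holds without the correction. Of 6 genes of the group detected in both HF samples, Hba-a3 was the 1 at least 1.5-fold higher in FR30 offspring, where 0.551% of 10347 genes were. On standard diet 0 of 5 were, against 0.236% of 10184 genes.

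The size of the Hba-a3 difference depended on the background correction, and outside FR30-HF its signal lay close to background. Without correction, in the authors' normalized signals, the diet difference was 1.12 in FR30 offspring and 0.31 in control offspring, and the prenatal difference was 1.17 on HF diet and 0.37 on standard diet. The 2 differences that involve FR30-HF stayed past 1.5-fold and the 2 that involve control-standard were under it. RefSeq places Hba-a3, Hba-a2 and Hba-a1 near each other on chromosome 10 and Hbb beside 4 other beta-globin genes on chromosome 1. Probe sequences were not used here, so which copies each probe sees was not tested.

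The sequences upstream of the 3 named blood globin genes and of Ngb are shown so that the genes whose diet signals lay over 2 deposited SDs apart on each side can be set beside Ngb, whose signals did not. They are the 250 bases before the annotated start in RefSeq's GRCr8 build, 5′ to 3′ in the direction of the gene. Capitals mark 4 motifs known from globin promoters, searched on both strands: the CACCC box, the CCAAT box, the GATAA motif and the TATAAA box. No matches overlapped.
Hbb, GRCr8 chr1:167663722-167663971, minus strand: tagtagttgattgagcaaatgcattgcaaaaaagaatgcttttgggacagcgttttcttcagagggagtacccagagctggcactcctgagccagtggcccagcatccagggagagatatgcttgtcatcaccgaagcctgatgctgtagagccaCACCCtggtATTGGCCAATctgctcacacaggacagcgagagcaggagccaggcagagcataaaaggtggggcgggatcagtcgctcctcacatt
Hba-a2, GRCr8 chr10:15829139-15829388, minus strand: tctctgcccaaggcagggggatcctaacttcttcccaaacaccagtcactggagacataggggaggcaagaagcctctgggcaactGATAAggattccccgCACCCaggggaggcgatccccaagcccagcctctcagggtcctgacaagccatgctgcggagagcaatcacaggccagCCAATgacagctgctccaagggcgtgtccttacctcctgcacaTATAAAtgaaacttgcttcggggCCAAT
Hba-a3, GRCr8 chr10:15816944-15817193, minus strand: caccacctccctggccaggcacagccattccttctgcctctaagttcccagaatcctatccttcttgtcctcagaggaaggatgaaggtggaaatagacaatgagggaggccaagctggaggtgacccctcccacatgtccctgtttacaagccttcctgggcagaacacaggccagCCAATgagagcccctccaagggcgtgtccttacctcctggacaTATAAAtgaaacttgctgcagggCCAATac
Ngb, GRCr8 chr6:112480787-112481036, minus strand: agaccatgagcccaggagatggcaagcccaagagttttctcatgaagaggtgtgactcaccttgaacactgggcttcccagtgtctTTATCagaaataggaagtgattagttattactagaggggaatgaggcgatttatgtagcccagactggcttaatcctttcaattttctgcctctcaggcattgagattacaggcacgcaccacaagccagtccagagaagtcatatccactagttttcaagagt

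As exact letters, Hba-a2 held all 4 motifs, Hbb held CACCC and CCAAT, Hba-a3 held CCAAT and TATAAA, and Ngb held GATAA alone. Variant spellings, such as the cataaa in the Hbb window, were not counted, so a missing match does not show that a box is absent. Matches were marked at any position, including a CCAAT at bases -5 to -1 of Hba-a2. Among 33469 rat promoter windows of the same length CACCC occurred in 49.2%, CCAAT in 34.0%, GATAA in 23.5% and TATAAA in 12.9%, and all 4 together in 0.511%. Hba-a2 and Hba-a1 were 96.4% identical over the window, and Hba-a2 and Hba-a3 were 65.5% identical in a gapped alignment. Hba-a2 and Hba-a3 both carried CCAAT and TATAAA shortly before the start. A match of letters does not show that a factor binds there.

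Alas2, the red cell aminolevulinate synthase, was not detected at p under 0.01 in any sample, so no fold is given. Its signal was 188 ± 4.33 (deposited SD) in FR30-HF, 174 ± 6.46 in FR30-standard, 175 ± 7.69 in control-HF and 158 ± 7.43 in control-standard. The detection p was 0.0109, 0.0412, 0.0303 and 0.1867 in the same 4 samples. The highest signal fell in the same sample as for Hbb and the lowest as well, but all 4 were near background.

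Ngb, detected in all 4 samples, had signals of 347 ± 17.3 (deposited SD) in FR30-HF, 337 ± 22.1 in FR30-standard, 348 ± 7.49 in control-HF and 338 ± 12.4 in control-standard. The SDs of all 4 samples overlap. Its diet difference was 0.07 in both prenatal groups and its prenatal difference -0.01 on both diets. Both HF samples were above both standard samples, as they were for 16.5% of the 10100 genes detected in all samples.

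Cygb had signals of 758 ± 75.3 (deposited SD) in FR30-HF, 726 ± 36.0 in FR30-standard, 671 ± 23.2 in control-HF and 730 ± 18.2 in control-standard. Control-HF was the lowest and the diet groups overlapped. Its diet difference was 0.07 in FR30 offspring and -0.16 in control offspring, and its prenatal difference was 0.21 on HF diet and -0.01 on standard diet. In no comparison were the Cygb signals more than 2 deposited SDs apart on each side.

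**Figure D2:**
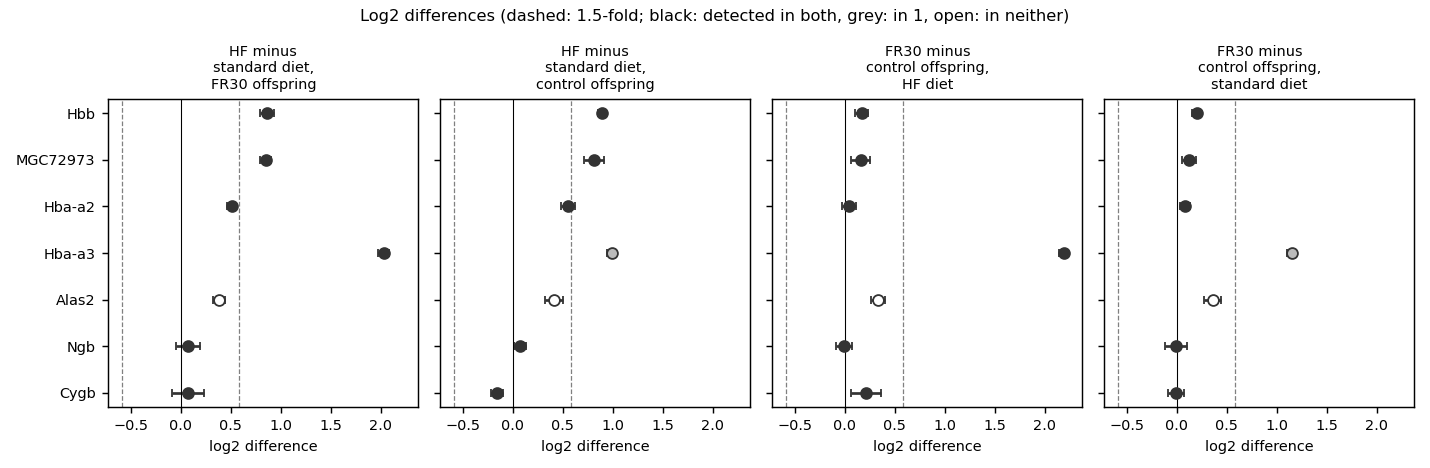
Log2 differences (horizontal axis) of the 7 probes in the 4 comparisons, with bars for the SD that the deposited SDs give. Dashed lines mark 1.5-fold; black points were detected in both samples, grey points in 1 and open points in neither. Hbb and MGC72973 lie past 1.5-fold by diet in both prenatal groups, and Hba-a3 lies at 2.03 by diet in FR30 offspring and at 2.19 by prenatal group on HF diet.

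Hbb, MGC72973 and Hba-a2 shared 1 order of the 4 samples. From high to low it was FR30-HF, control-HF, FR30-standard and control-standard, an order that 5.56% of genes detected in all samples had. The 2 samples of a diet lay less than 2 deposited SDs apart on each side for Hba-a2 and MGC72973, and for Hbb they did so on HF diet but lay further apart on standard diet. With diet and prenatal group as additive terms, limma called 0 of 10100 genes (0.0%) for diet at an adjusted p under 0.05, with 719 at an unadjusted p under 0.05. For prenatal group it called 1 (0.0099%), LOC499408, an unnamed locus singled out here by that count, with 1283 at an unadjusted p under 0.05. No gene of the pathway and marker lists below was called. With 1 sample per group, the fit took its noise from how far the diet differences of the 2 prenatal groups lay apart. Its p-values therefore do not measure variation between rats. Without background correction Tshb was called for prenatal group in the authors' normalized signals, and Emcn, Igf2, Slc6a13, Slc6a3 and Tshb after quantile normalization.

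The genes whose profile over the 4 samples lay nearest to that of Hbb, after centring each gene on its mean, were MGC72973 at a root mean square distance of 0.03 log2 units, Abcg2 at 0.13, Hba-a2 at 0.18, LOC689147 at 0.19 and Map7 at 0.19, among 10099 genes. Abcg2, an efflux transporter of vessel walls and red cell precursors that also carries porphyrins, had signals of 1165 ± 35.1 (deposited SD) in FR30-HF, 683 ± 23.9 in FR30-standard, 908 ± 13.3 in control-HF and 662 ± 24.6 in control-standard. It was higher on HF diet by 0.91 in FR30 offspring and by 0.54 in control offspring. The nearest to Hba-a2 were LOC689147 (0.03), Map7 (0.04), Smyd1 (0.06), Rpe65 (0.09) and Sdpr (0.10). Map7 encodes a microtubule-binding protein and Smyd1 a methyltransferase known from muscle, and each of these genes was read by 1 probe.

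**Figure D3:**
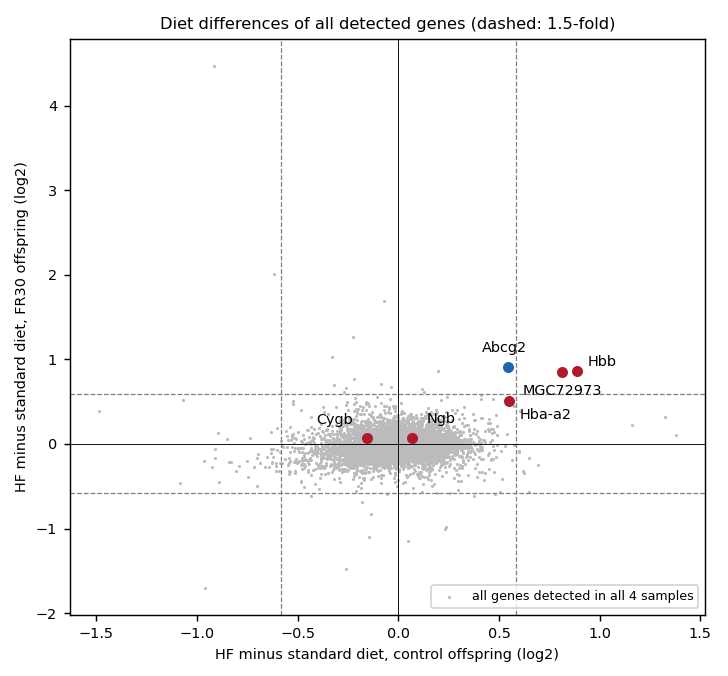
Diet difference, HF minus standard (log2), of control offspring (horizontal axis) against that of FR30 offspring (vertical axis) for the 10100 genes detected in all samples. Genes of the group are in red and Abcg2 in blue, and dashed lines mark 1.5-fold. Hbb and MGC72973 are the points past 1.5-fold upward on both axes, Hba-a2 and Abcg2 lie close to them, and Ngb and Cygb lie in the cloud.

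Among markers of red cells and their precursors, Ahsp had its higher signals in both HF samples, while all others with a probe were not detected or stayed under 1.5-fold. Ahsp encodes the chaperone that binds free alpha-globin. Its signal was 227 ± 8.08 (deposited SD) in FR30-HF and 191 ± 6.48 in FR30-standard, and 206 ± 2.52 in control-HF and 177 ± 3.90 in control-standard. It was detected in both HF samples and in neither standard sample. On the background-corrected scale it was at least 1.65-fold higher on HF diet in FR30 offspring and at least 1.37-fold higher in control offspring, but the ratios of the authors' normalized signals were 1.19 and 1.16, so these bounds do not hold without the correction.

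Of the 32 genes of the red cell list, 24 had a probe and 14 were detected in no sample, including the anion exchanger Slc4a1, the blood group genes Rhag and Kel, and the transcription factors Klf1 and Gata1. Of 9 detected in both samples, 6 were higher and 3 lower on HF diet in each prenatal group. Their median was 0.01 in FR30 offspring and 0.05 in control offspring, and none passed 1.5-fold. Over all genes detected in both samples, 48.6% were higher by any amount in FR30 offspring and 53.8% in control offspring. The list counts below have the same shares beside them. Rhd differed by 0.17 in FR30 offspring and 0.18 in control offspring, and Bpgm, whose enzyme makes the red cell metabolite that loosens oxygen from haemoglobin, by 0.08 and 0.13. Gypc, a membrane glycoprotein gene, differed by -0.07 and -0.15, and Dmtn, of the membrane skeleton, by -0.06 and -0.11. Tmcc2 differed by -0.40 in FR30 offspring and by 0.10 in control offspring, Add2 by 0.30 and 0.02, and Xpo7, the brightest, by 0.04 and 0.05. The summed background-corrected level of the 9 genes was 18535 in FR30-HF, 18007 in FR30-standard, 18195 in control-HF and 17301 in control-standard. Several of the 9, such as Ank1, Epb41 and Xpo7, are also expressed in brain. The part that blood in the tissue had in the globin values was not tested.

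Other globins of the list were not detected. Of 13 looked for, 6 had a probe, among them the myoglobin gene Mb and the embryonic genes Hbe1 and Hbe2, and none was detected in any sample.

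Haem synthesis genes outside the group differed little. Of 14, 11 were detected in both samples in FR30 offspring, 8 of them higher and 3 lower on HF diet (median 0.06), and 12 in control offspring, 8 higher and 4 lower with a median of 0.02. None passed 1.5-fold in any of the 4 comparisons, where between 0.324% and 0.802% of all genes detected in both samples did, in either direction. Such shares leave few or none in lists of this size, the red cell list and those below included. Slc25a38, the mitochondrial carrier that supplies glycine for haem synthesis, had the highest value in each diet comparison, 0.20 in FR30 offspring and 0.19 in control offspring. Fech, whose enzyme inserts the iron, was higher by 0.15 in FR30 offspring and by 0.00 in control offspring. Urod and Abcb6, the brightest of the list, differed by 0.08 and 0.01 in FR30 offspring and by -0.01 and 0.11 in control offspring.

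Genes that break down, bind or carry haem, and genes of iron handling, also stayed under 1.5-fold in all 4 comparisons. Of 10 detected haem breakdown and transport genes 8 had a higher value on HF diet in FR30 offspring and 7 in control offspring, with medians of 0.05 and 0.07. Pgrmc1 and Blvra, the brightest, differed by 0.11 and 0.06 in FR30 offspring and by -0.03 and 0.09 in control offspring. Hmox1, the inducible haem oxygenase that responds to free haem, differed by -0.01 in FR30 offspring and by 0.14 in control offspring. Hp, which encodes the haemoglobin-binding plasma protein haptoglobin, differed by 0.00 and 0.31, and its difference between FR30-HF and control-HF was -0.46. Of 12 iron handling genes 6 were higher on HF diet in each prenatal group. Tfrc, the transferrin receptor that red cell precursors hold in quantity, differed by 0.09 in FR30 offspring and by 0.16 in control offspring, the ferritin gene Fth1 by 0.00 and -0.03, and the transferrin gene Tf by 0.02 and -0.08. Among 5 detected regulators of aminolevulinate synthase genes the median was 0.01 in FR30 offspring and 0.04 in control offspring. The brightest of them, Tfam and Nr1d1, differed by 0.01 and 0.11 in FR30 offspring and by 0.07 and -0.03 in control offspring.

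Genes of the hypoxia response, which low oxygen induces, had medians of opposite sign, -0.05 over 11 genes in FR30 offspring and 0.04 over 12 in control offspring, and none passed 1.5-fold. Bnip3 and Bnip3l, the brightest, differed by 0.01 and -0.10 in FR30 offspring and by 0.04 and -0.06 in control offspring. Neither Epo nor its receptor Epor was detected in any sample.

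Markers of white cells, platelets and vessels had medians near 0. Of 35 genes of white cells and platelets 31 had a probe and 25 were detected in no sample, and the medians of the other 6 were -0.03 in FR30 offspring and -0.02 in control offspring. Gp1bb and Pf4, platelet genes and the brightest of the list, differed by -0.09 and 0.00 in FR30 offspring and by 0.07 and -0.11 in control offspring. Slfn3, a gene of lymphocytes, was the 1 past 1.5-fold, with a diet difference of -0.59 in FR30 offspring. Its authors' normalized signals, 225 ± 6.33 (deposited SD) in FR30-HF and 271 ± 3.66 in FR30-standard, were under 1.5-fold apart. Of 16 detected endothelial genes 11 had a higher value on HF diet in FR30 offspring and 9 in control offspring, with medians of 0.05 and 0.04. Abcg2, which stands in that list, was the 1 past 1.5-fold, at 0.91 in FR30 offspring, above the 0.86 of Hbb there. Itm2a and Slco1c1, the brightest, differed by 0.09 and 0.12 in FR30 offspring and by 0.02 and 0.08 in control offspring. Values of the list ran from -0.05 to 0.91 in FR30 offspring and from -0.24 to 0.54 in control offspring, with 5 and 7 genes lower. Cldn5, Vwf and Tie1 differed by diet by between -0.05 and 0.13, and Ocln by 0.21 in FR30 offspring and 0.49 in control offspring. Flt1 and Cdh5 were detected in no sample.

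Most genes of mural and meningeal cells had lower values on HF diet in control offspring. Of 16 detected, 3 were higher and 13 lower on HF diet there, with a median of -0.25. Of 17 in FR30 offspring 8 were higher and 9 lower, with a median of -0.04. Over all genes detected in both samples, 53.8% were higher on HF diet in control offspring and 48.6% in FR30 offspring. Igf2 and Col1a2, the brightest, differed by -0.07 and -0.08 in FR30 offspring and by -0.38 and -0.44 in control offspring. Slc22a2 was past 1.5-fold by diet in FR30 offspring, at 0.70. Its authors' normalized signals, 252 ± 5.3 (deposited SD) in FR30-HF and 206 ± 3.61 in FR30-standard, were under 1.5-fold apart. Outside FR30-HF the Slc22a2 signal lay close to background. Between FR30-HF and control-HF, Slc22a2 differed by 1.17, Igfbp2 by 0.71, Slc6a13 by 0.60 and Ogn by 0.59. In the authors' normalized signals Slc22a2, Slc6a13 and Ogn were under 1.5-fold there, and Igfbp2 was past it, at 1246 against 824. The summed background-corrected level of 16 genes of the list was 17849 in FR30-HF, 18362 in FR30-standard, 13520 in control-HF and 17324 in control-standard. Neuronal genes had medians of -0.04 in FR30 offspring, with 4 of 15 higher, and -0.05 in control offspring, with 6 of 15 higher. The brightest, Gap43 and Snap25, differed by -0.13 and -0.03 in FR30 offspring and by 0.10 and 0.05 in control offspring.

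In the list of markers of neighbouring tissue and regions, Tshb and Pomc, the latter also a gene of the hypothalamus, were higher on HF diet in both prenatal groups. Prl and the thalamic markers were lower in both. Of 10 detected in both samples in FR30 offspring 5 were higher and 5 lower, with a median of 0.09, and of 9 in control offspring 3 were higher and 6 lower, with a median of -0.07. The summed background-corrected level of the 8 genes detected in all samples was 13777 in FR30-HF, 10763 in FR30-standard, 9395 in control-HF and 9711 in control-standard. Kl, Folr1 and Cga were detected in no sample.

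Pomc, a hormone gene of hypothalamus and pituitary, differed by 0.55 in FR30 offspring and by 0.24 in control offspring, and its profile was the 12th nearest to that of Hbb, at a distance of 0.27. Tshb, of the pituitary, differed by 0.25 and 0.20. The other pituitary genes did not share this, since Prl was lower on HF diet in both prenatal groups and Cga was not detected. The thalamic markers were lower on HF diet in both prenatal groups: Rora differed by -0.21 in FR30 offspring and by -0.84 in control offspring, Ramp3 by -0.12 and -0.70, Prkcd by -0.08 and -0.60, and Tcf7l2 by -0.51 and -0.47. The part of tissue content in the globin values was not tested.

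Ttr went different ways in the 2 prenatal groups, while Prl was lower on HF diet in both. Slc6a3 was higher on HF diet in FR30 offspring and differed little in control offspring. Ttr of the choroid plexus differed by 3.91 in FR30 offspring. In control offspring it was at least 7.90-fold lower on HF diet on the background-corrected scale, and 2.86-fold lower in the authors' normalized signals. Slc6a3, the dopamine transporter gene, differed by 1.68 in FR30 offspring and by -0.07 in control offspring. Prl, the prolactin gene, differed by -0.75 in FR30 offspring, and in control offspring it was at least 12.7-fold lower on HF diet on the corrected scale and 4.76-fold lower in the authors' signals. Between FR30-standard and control-standard Ttr differed by -2.38, Prl by -1.79 and Slc6a3 by 0.97, and between FR30-HF and control-HF Slc6a3 differed by 2.72 and Prkcd by 0.66.

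**Figure D4:**
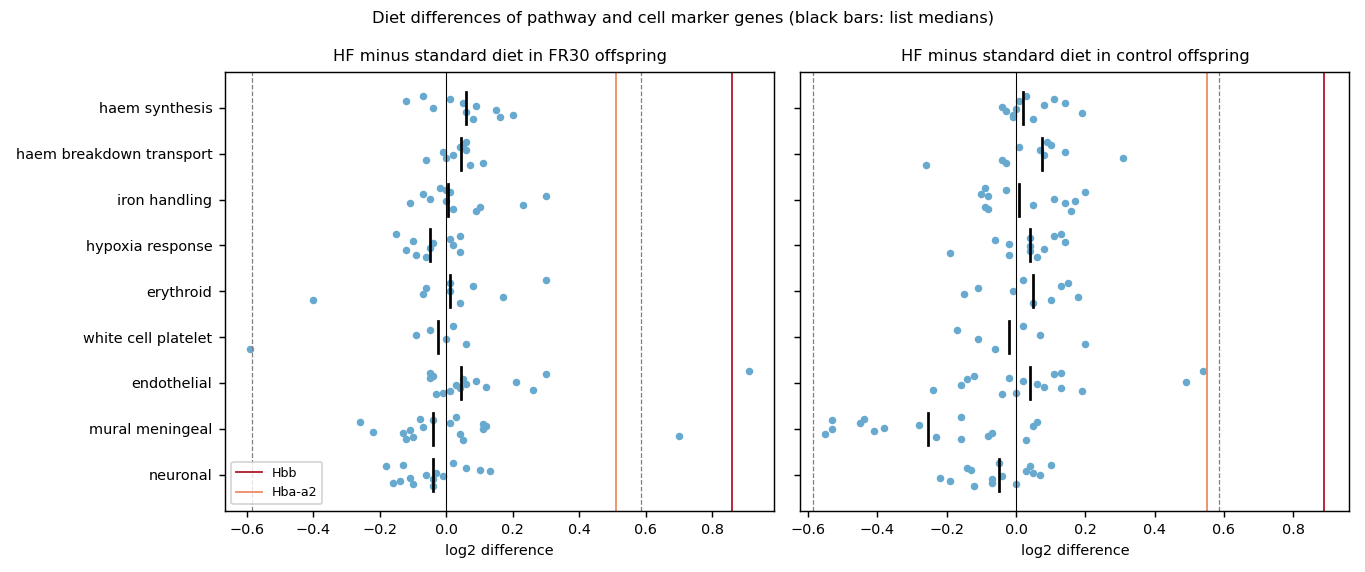
Log2 difference between HF and standard diet (horizontal axis) of every gene detected in both samples of 9 pathway and cell marker lists, in FR30 offspring (left) and control offspring (right). Black bars are list medians, dashed lines 1.5-fold, and the vertical coloured lines the values of Hbb and Hba-a2. The list medians lie between -0.25 and 0.07, while Hbb stands at 0.86 and 0.89.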

How the data were processed

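Per the submitters' processing notes the tables were made with GenomeStudio (no version named). One deposited table gives each probe's mean bead intensity before normalization, linear, beside a detection p-value that the authors also deposited. Another gives the authors' normalized intensity, a detection p-value and an SD, so named per the file headers and treated here as a score of spread since its basis is unstated. The sources used here do not give the normalization method. The deposited value table of the series equalled those normalized intensities (largest difference 0, column medians 181.0 to 181.2), so its values are linear and uncentred.

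Starting from the intensities before normalization, limma 3.58.1 in R 4.3.3 gave log2 values (neqc, with background from the detection p-values, offset 16, then quantile normalization). RefSeq matched 10291 probes by symbol, 4966 through synonyms and 1642 through a gene number, and 5495 stayed unmatched, 117 unnamed and 12 turned into dates. The brightest probe stood for each of 21397 genes. As each group holds 1 sample, a difference was described by size, at least 1.5-fold with a detection p under 0.01 in each of the samples compared. The additive limma fit used Benjamini-Hochberg adjustment over 10100 genes, with 1 residual and 3.83 prior degrees of freedom.

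The genes named are all members, up to 4 genes past 1.5-fold and the 2 brightest of each list and comparison, and the 5 nearest profiles to Hbb and to Hba-a2; other named genes were chosen after their values were seen. The members and lists were chosen with earlier results of these data known. Motifs and identities were computed in Python 3.11.15. The normalization and the fit were run on simulated data with changes planted only in probes well above background. Genes near background, such as Hba-a3 outside FR30-HF, Alas2 and Ahsp, were not covered by that. Alternatives were 2 settings without background correction, another offset, median scaling, other detection filters and the mean of a gene's probes. The number of arrays limits the precision.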

Additional observations from a re-analysis of the deposited data

Results flagged for a closer look

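Cygb had differences of opposite sign in the groups, although in no comparison were its signals more than 2 deposited SDs apart on each side. Its difference between HF and standard diet was 0.07 in FR30 offspring and -0.16 in control offspring, and its difference between FR30 and control offspring was 0.21 on HF diet and -0.01 on standard diet. Slc22a2, an organic cation transporter in the list of meningeal genes, differed by diet by 0.70 in FR30 offspring and by -0.08 in control offspring. Its signal lay close to background outside FR30-HF. In the authors' normalized signals its diet difference in FR30 offspring was under 1.5-fold. Slc6a3, the dopamine transporter, differed by diet by 1.68 in FR30 offspring and by -0.07 in control offspring. With 1 sample per group these differences between groups were not tested.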

How the results depend on the processing

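Under the alternatives run, 7 for Hbb and 6 for each other member, no difference of a member changed sign. Some of these could not alter a member's value. A detection filter leaves values as they are, and the mean of a gene's probes, run for Hbb, equals the value of its 1 probe. Hbb differed by diet by between 0.81 and 0.87 in FR30 offspring and by between 0.84 and 0.89 in control offspring, and median scaling gave the lower value, 0.84. Without background correction, in the authors' normalized signals, 19 and 16 genes passed 1.5-fold by diet in FR30 and control offspring and 26 and 28 by prenatal group on HF and standard diet, against 33, 61, 83 and 79. Quantile normalization of the uncorrected signals gave 19, 15, 25 and 27. The split of higher against lower was 15 to 46 by diet in control offspring and 24 to 55 by prenatal group on standard diet, and it became 7 to 9 and 12 to 16 in the authors' signals and 6 to 9 and 12 to 15 with the uncorrected ones. An offset of 50 gave 32 by diet in control offspring and 50 and 47 by prenatal group on HF and standard diet. By diet in FR30 offspring, 50 genes passed with a detection p under 0.05 and 60 with no detection filter. With no filter Hba-a3 also passed by prenatal group on standard diet, 1 member in place of 0, and by diet in control offspring, 3 in place of 2. In the authors' signals Hba-a2 also passed by diet, giving 4 members in FR30 offspring and 3 in control offspring in place of 3 and 2. The additive limma fit called 3 genes for diet and 69 for prenatal group in the authors' signals, 3 and 182 with the uncorrected signals, and 2 and 7 with the offset of 50, in place of 0 and 1. The genes called for diet were in each case members of the group, chosen with these values known. Those calls are therefore no test of the members, and nothing is read from them. List genes were among those called for prenatal group, 1 of the 69 and 5 of the 182. The cause of these shifts was not tested, except that a filter change alters the genes counted. No paired analysis was possible because each group holds 1 sample, and leaving a sample out of the fit leaves no residual degrees of freedom. The slide as a block was not run, since the files name no slide. Signals close to background limit what can be said of Hba-a3, Alas2, Ahsp and Slc22a2.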

Other observations

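Heph and Slc40a1, 2 of the 12 detected iron handling genes, had their highest signals in the FR30-HF sample, while the list's median difference was 0.01 by diet in both prenatal groups and 0.02 by prenatal group on both diets. Heph, which encodes the ferroxidase hephaestin, had signals of 957 ± 8.65 (deposited SD) there, 815 ± 17.2 in FR30-standard, 768 ± 44.5 in control-HF and 802 ± 39.1 in control-standard. Slc40a1, the iron exporter ferroportin, had 700 ± 12.8 (deposited SD), 615 ± 9.47, 607 ± 9.64 and 589 ± 21.3 in the same 4 groups. Their differences between FR30 and control offspring on HF diet were 0.39 and 0.26, both under 1.5-fold and with no test, and both genes were named after their values were seen.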
